A study of Mus musculus with 19 samples.

Results

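The CCN family (Ccn1 to Ccn5, older names Cyr61, Ctgf, Nov, Wisp1 and Wisp2) was described in RNA sequencing of mouse ventricle after deletion of Mpc1, a subunit of the mitochondrial pyruvate carrier. The 5 genes were taken by gene symbol and Ensembl identifier from the 55536 genes of the deposited count tables. The sixth family gene, Ccn6, is not among them and had at most 5 counts in any library, too few to be tested. There were 19 libraries of ventricular RNA depleted of ribosomal RNA. KO-8 (n = 4) were hearts with inducible, heart-specific Mpc1 knockout 8 weeks after induction, and WT-8 (n = 5) were wild-type hearts of the same time. KO-16 (n = 5) and WT-16 (n = 5) were the corresponding hearts 16 weeks after induction. The driver of the recombinase, the inducing agent, the age and the strain of the mice, and whether wild-type mice carried the recombinase or received the inducer, are not given in the sources used here. The labels do not state whether libraries stand for different animals, and the p-values below measure the spread between these libraries, which may be technical. Whole ventricle was sequenced, so fewer cells of a type and less RNA per cell cannot be told apart.

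CCN proteins are secreted and bind the extracellular matrix, integrins and heparan sulphate proteoglycans. They carry a module like that of the insulin-like growth factor binding proteins, a von Willebrand factor type C repeat and a thrombospondin type repeat, and all but CCN5 end in a cystine knot. In the heart CCN2, known as connective tissue growth factor, is a familiar target of transforming growth factor beta (TGF-beta) and of the Hippo effectors YAP and TAZ, and it is a usual marker of fibrosis. CCN1 is an immediate early gene and another YAP and TAZ target, and CCN5 has been described in rodent hearts as acting against CCN2.

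Assigned read pairs totalled 16528626 to 19466260 in KO-8, 17420121 to 27516660 in WT-8, 9538130 to 26914074 in KO-16 and 8632127 to 19678367 in WT-16. The 18S ribosomal RNA took 1.71% to 30.0% of counts in KO-16 and 6.88% to 39.1% in WT-16, against at most 0.0666% in the 8-week libraries, and the part of that share in the results was tested only as a covariate. The 16-week samples had 2 count files each, which were summed, and the 8-week samples 1 file under a different date code. Time after induction and that date cannot be told apart, and no level was tested between times within a genotype. Mpc1 fell to 10.8 ± 1.62 CPM (counts scaled to library size) in KO-8, against 74.3 ± 6.82 CPM in WT-8, and to 15.1 ± 6.99 CPM in KO-16, against 69.6 ± 9.29 CPM in WT-16 (SD; n = 4, 5, 5 and 5). The groups did not overlap at either time, and replicate 1 of KO-16 held the most Mpc1 of the knockout libraries, 26.2 CPM. Cardiomyocyte markers were abundant in every library, at a summed level of 41310 to 48192 CPM in KO-8, 46132 to 49814 CPM in WT-8, 30094 to 50346 CPM in KO-16 and 47890 to 54965 CPM in WT-16. Replicate 4 of KO-16 and replicate 5 of WT-16 were the only libraries with over 20 CPM from Y-linked genes. They are called male-marked here. Without them 10 genes of all those tested were called at 16 weeks, and none was a CCN gene or a gene of the lists described here, so each 16-week call of those genes was lost in that fit.

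CPM values use TMM-scaled library sizes, and each knockout group was compared with the wild-type group of its own time by edgeR's quasi-likelihood test, with p-values adjusted by Benjamini-Hochberg over all genes tested and a threshold of 0.05. All 5 genes passed the filter on low counts at both times. At 8 weeks 2 of the 5 passed the threshold, Ccn1 lower and Ccn5 higher in knockout, where 8.21% of 15173 genes tested did (4.3% higher and 3.91% lower). At 16 weeks Ccn5 passed, where 2.83% of 12597 genes tested did (1.88% higher and 0.945% lower). Members passed in different directions, and they are described in turn, first the abundant pair Ccn2 and Ccn1, then Ccn5, then Ccn4 and Ccn3.

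**Figure D1:**
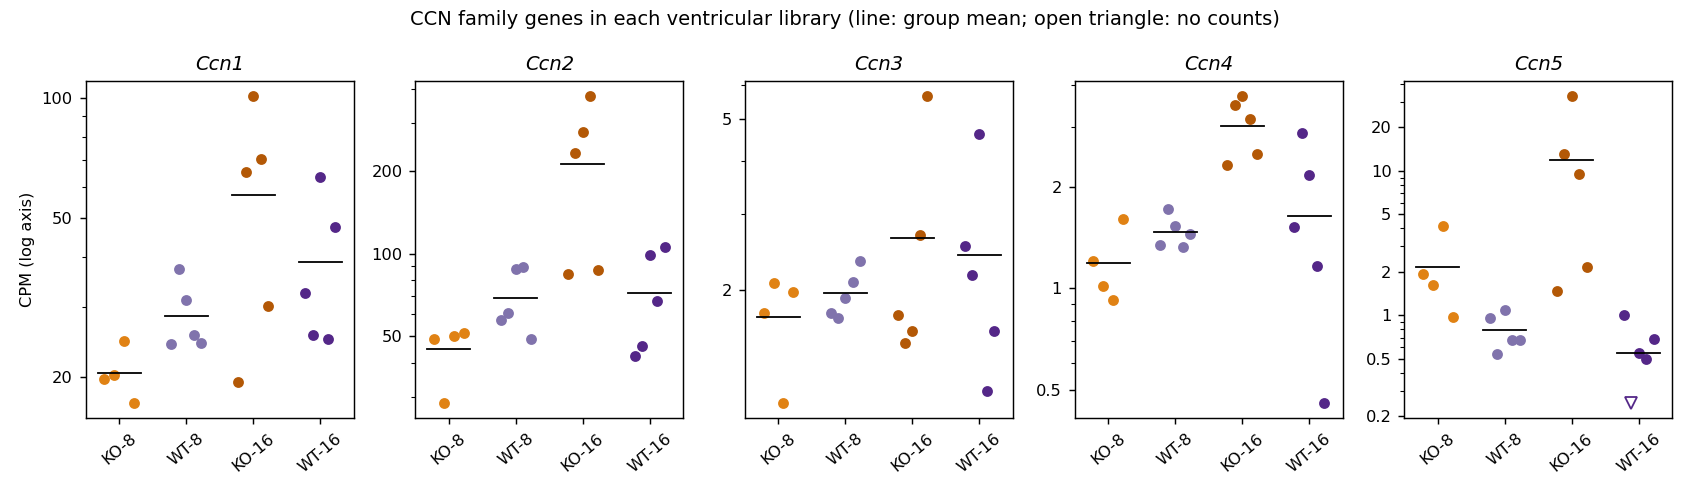
Level of each CCN gene in every library in CPM on a log axis, by group, with lines at group means (n = 4, 5, 5 and 5); the open triangle marks the WT-16 library without a Ccn5 count, drawn at an arbitrary height. All 5 KO-16 libraries lie above all WT-16 libraries for Ccn5, and 3 of 5 lie above them for Ccn2, with 84.5 and 87.2 CPM in the other 2.

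Ccn2 was the most abundant family member in every group mean. Its gene lies at chr10:24595442-24598683 on the plus strand (GRCm38) and is overlapped on the minus strand by the antisense gene Gm15270; reads were assigned by strand, per the file headers. At 16 weeks Ccn2 had 84.5, 233, 279, 377 and 87.2 CPM in replicates 1 to 5 of KO-16, against 42.2, 45.9, 99.1, 67.2 and 106 CPM in those of WT-16. Replicates 2, 3 and 4 of KO-16 stood above every WT-16 library, while replicates 1 and 5 fell inside the WT-16 range. The group means were 212 ± 126 CPM in KO-16 and 72.0 ± 29.4 CPM in WT-16 (SD, n = 5 each), a fitted log2 fold change of 1.56 (SE 0.41, 95% interval 0.69 to 2.43). The adjusted p of edgeR was 0.0538, just above the threshold and so not called, and the exact two-sided permutation test on log2 CPM gave p = 0.0476 unadjusted. Leaving out replicate 1 of KO-16 gave 1.76 (adjusted p = 0.00765) and leaving out replicate 5 gave 1.75 (adjusted p = 0.0171). The other 8 of 10 single leave-outs did not call Ccn2. Over all 10 the log2 fold change was 1.25 to 1.76, with an edgeR adjusted p of up to 0.131. DESeq2 on the 5 KO-16 and 5 WT-16 libraries called Ccn2 (log2 fold change 1.56, adjusted p = 0.0243).

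At 8 weeks the sign for Ccn2 was the other way. Its levels were 48.9, 28.6, 50.0 and 51.5 CPM in KO-8, against 57.2, 60.8, 87.9, 89.2 and 48.9 CPM in WT-8. Every KO-8 library lay below the WT-8 mean of 68.8 ± 18.5 CPM (SD, n = 5), and replicate 5 of WT-8 lay among the knockouts. The log2 fold change was -0.61 (SE 0.19, edgeR adjusted p = 0.0647, exact permutation p = 0.0397 unadjusted), so Ccn2 missed the threshold at both times, in opposite directions. Without replicate 5 of WT-8 the log2 fold change was -0.71 (adjusted p = 0.0282). The other 8 of 9 single leave-outs did not call Ccn2, with an edgeR adjusted p of up to 0.147. The difference between the 16-week and the 8-week log2 fold changes was 2.17 (SE 0.51, 95% interval 1.11 to 3.23). It had an unadjusted p of 0.00036 and an adjusted p of 0.235 in edgeR, at rank 23 of 15503 genes. No gene passed that contrast (2000 genes had an unadjusted p under 0.05, DESeq2 called 30 genes and limma-voom 0). Without replicate 1 or replicate 5 of KO-16 Ccn2 did, with 2.37 (adjusted p = 0.00904) and 2.36 (adjusted p = 0.0390). The other 17 of 19 single leave-outs did not call Ccn2, with an edgeR adjusted p of up to 0.455. An unadjusted p under 0.05 at both times with opposite signs was found in 43 of 12573 genes tested at both, or 0.342%, Ccn2 among them.

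Ccn1, which encodes an integrin ligand, lies at chr3:145646976-145649981 on the minus strand. Of the 5 genes it was the only one matched by its current symbol in the RefSeq promoter table (GRCm38.p6). The older names were not looked up there. The Ccn1 promoter is shown because the family's best known regulators, the TEAD factors that carry YAP and TAZ to DNA, bind GGAATG. The 250 bases before the RefSeq start, chr3:145649986-145650235, read 5′ to 3′ on the minus strand with the match to that motif in capitals, are given here.
Ccn1 promoter: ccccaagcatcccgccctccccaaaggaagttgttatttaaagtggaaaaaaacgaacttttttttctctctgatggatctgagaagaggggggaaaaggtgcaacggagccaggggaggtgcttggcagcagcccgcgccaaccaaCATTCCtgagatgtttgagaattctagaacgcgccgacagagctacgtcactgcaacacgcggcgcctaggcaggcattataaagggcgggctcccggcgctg
The capitals, CATTCC, are GGAATG on the opposite strand, 103 to 98 bases before the start. The 6 letters occurred on either strand in 12.6% of the 32851 promoter windows searched. The SMAD motif CAGAC (42.2% of windows), the AP-1 motif TGANTCA (6.75%), the TCF motif ATCAAAG (3.21%) and the CArG box of serum response factor (1.47%) were not in these 250 bases on either strand.

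At 8 weeks Ccn1 fell 1.38-fold in knockout. Its levels were 19.8, 20.2, 24.6 and 17.3 CPM in KO-8, against 24.2, 37.3, 31.3, 25.5 and 24.4 CPM in WT-8. Replicates 1, 2 and 4 of KO-8 lay below every WT-8 library, and replicate 3 lay among the lowest of them. The means were 20.5 ± 3.04 CPM in KO-8 and 28.5 ± 5.68 CPM in WT-8 (SD, n = 4 and 5), with a log2 fold change of -0.46 (SE 0.13, edgeR adjusted p = 0.0451, exact permutation p = 0.0397). The call was lost without any one of replicates 2, 3 and 4 of WT-8 or 1, 2 and 4 of KO-8, with log2 fold changes of -0.50 to -0.35 and adjusted p of 0.0557 to 0.112.

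At 16 weeks Ccn1 showed no such difference. It had 19.5, 65.3, 101, 70.4 and 30.2 CPM in KO-16, against 32.6, 25.5, 63.5, 25.0 and 47.6 CPM in WT-16. The knockout libraries spanned the whole wild-type range: replicate 1 of KO-16 was below every WT-16 library and replicates 2, 3 and 4 were above every one. The log2 fold change was 0.56 (SE 0.39, 95% interval -0.28 to 1.39, edgeR adjusted p = 0.379). The change of effect between the times was 1.02 (SE 0.47, unadjusted p = 0.0410, adjusted p = 0.374 in edgeR).

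Ccn5 was the member that rose at both times. The gene lies at chr2:163820861-163833146 on the plus strand and encodes the family protein without the cystine knot. At 8 weeks it had 1.93, 1.63, 4.16 and 0.970 CPM in KO-8, against 0.962, 0.544, 1.09, 0.681 and 0.674 CPM in WT-8. All but replicate 4 of KO-8 lay above every WT-8 library. The means were 2.17 ± 1.39 CPM in KO-8 and 0.790 ± 0.227 CPM in WT-8 (SD, n = 4 and 5), a 2.76-fold rise (log2 fold change 1.46, SE 0.36, edgeR adjusted p = 0.0219, exact permutation p = 0.0159). Replicate 3 of KO-8 carried much of it: without that library the log2 fold change was 0.93 (adjusted p = 0.0579). The call was also lost without replicate 2 of WT-8 (1.37, adjusted p = 0.0532) or replicate 4 of WT-8 (1.42, adjusted p = 0.0532).

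At 16 weeks Ccn5 had 1.47, 13.1, 32.8, 9.52 and 2.16 CPM in KO-16, against 1.01, 0, 0.552, 0.499 and 0.689 CPM in WT-16. Every KO-16 library lay above every WT-16 library, which held for 2.12% of all genes tested (groups did not overlap, in either direction, in 4.68%). The wild-type values rest on 4, 0, 12, 3 and 3 counts, and the count of 0 in replicate 2 allows up to 0.542 CPM (3 counts), while the KO-16 libraries had 21, 469, 532, 78 and 13 counts. These limits cover counting error only. The means were 11.8 ± 12.7 CPM in KO-16 and 0.550 ± 0.366 CPM in WT-16 (SD, n = 5 each), a fitted 22.6-fold rise with a 95% interval of 6.0-fold to 85.4-fold (log2 fold change 4.50, SE 0.89, edgeR adjusted p = 0.0276). The exact permutation p was 0.00794, the smallest that 5 against 5 can give. The separation of the groups already fixes that value, so it adds nothing to it. With so few wild-type counts Ccn5 passed the filter on low counts through its knockout libraries. The size of the fold and the separation of the groups thus rest on wild-type values of 0 to 12 counts. The closest pair was 1.01 CPM in replicate 1 of WT-16 (4 counts) and 1.47 CPM in replicate 1 of KO-16 (21 counts).

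The rise at 16 weeks kept its direction but not its call when libraries were left out. Leaving out the highest library, replicate 3 of KO-16, gave 3.66 (adjusted p = 0.0506). Without replicate 2 or 4 of KO-16 or any single WT-16 library it was 4.25 to 4.68 (adjusted p = 0.0535 to 0.0857), and the call held without replicate 1 or 5 of KO-16. Over the same leave-outs the number of genes called among all tested ran from 29 to 1854. With both male-marked libraries left out it was 4.63 (adjusted p = 0.149), and a covariate for the 18S share gave 4.17 (adjusted p = 0.0908). Ccn5 was 1 of 139 genes, 1.11% of the 12573 tested at both times, that were called higher in knockout at both. The difference between its log2 fold changes at the 2 times was 3.07 (SE 1.12, unadjusted p = 0.0120, adjusted p = 0.321 in edgeR). Without replicate 1 of KO-16 it was 3.37 (adjusted p = 0.0477), and without replicate 3 it was 2.25 (adjusted p = 0.477).

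**Figure D2:**
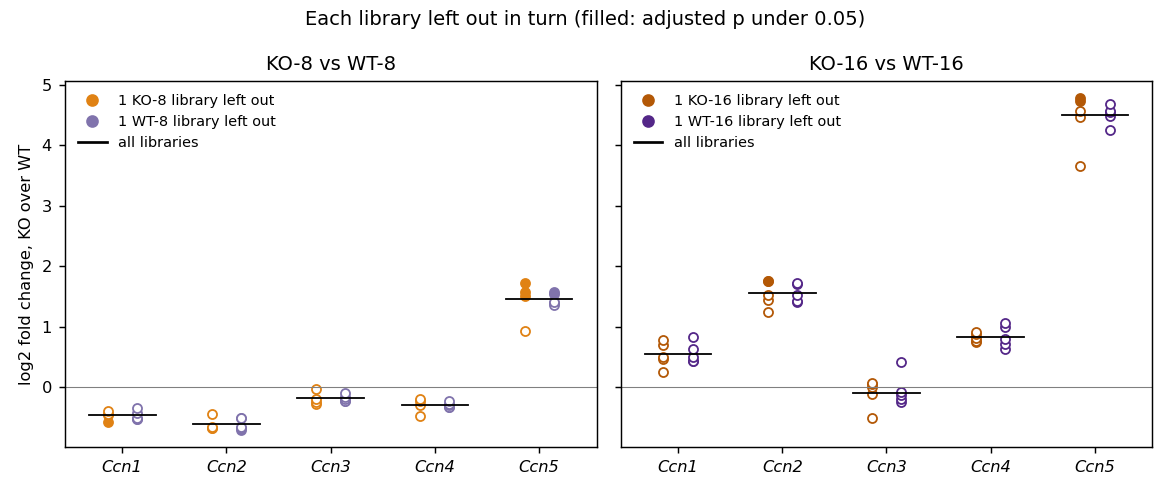
Log2 fold change of each CCN gene, knockout over wild type, with 1 library left out at a time (points, coloured by the group the library came from; filled where the adjusted p is under 0.05) and with all libraries (line), at 8 weeks on the left and 16 weeks on the right. Ccn5 stays above 0 throughout, between 0.93 and 1.72 at 8 weeks and between 3.66 and 4.79 at 16 weeks, while Ccn3 crosses 0 at 16 weeks.

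Ccn4 lies at chr15:66891320-66923201 on the plus strand and is known as a Wnt-induced secreted protein. At 16 weeks it had 2.31, 3.49, 3.70, 3.17 and 2.49 CPM in KO-16, against 1.52, 2.89, 2.16, 1.16 and 0.459 CPM in WT-16. Every KO-16 library was above the WT-16 mean, and only replicate 2 of WT-16 reached into the knockout range. The means were 3.03 ± 0.609 CPM in KO-16 and 1.64 ± 0.931 CPM in WT-16 (SD, n = 5 each). Ccn4 nevertheless missed the threshold, with a log2 fold change of 0.83 (SE 0.34, 95% interval 0.10 to 1.56, edgeR adjusted p = 0.150; exact permutation p = 0.0317 unadjusted). Its wild-type values rest on 6, 16, 47, 7 and 2 counts, and those of KO-16 on 33, 125, 60, 26 and 15. Like Ccn5, Ccn4 passed the filter on low counts at 16 weeks through its knockout libraries. Unlike Ccn5 and Ccn2, it varied little among the knockout libraries, with a coefficient of variation of 20.1% in KO-16 beside 108% for Ccn5 and 59.6% for Ccn2. This did not hold in WT-16, where Ccn4 had 56.8%, beside 66.6% for Ccn5 and 40.9% for Ccn2. At 8 weeks it had 0.925 to 1.61 CPM in KO-8, against 1.32 to 1.72 CPM in WT-8, with a log2 fold change of -0.29 (SE 0.19, edgeR adjusted p = 0.392). The difference between the times was 1.11 (SE 0.38, unadjusted p = 0.00824, adjusted p = 0.312 in edgeR).

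Ccn3, on the same chromosome at chr15:54745702-54754039, showed no difference at either time beyond the spread of the libraries. It had 1.09 to 2.08 CPM in KO-8, against 1.72 to 2.33 CPM in WT-8 (log2 fold change -0.18, SE 0.18, 95% interval -0.57 to 0.21, edgeR adjusted p = 0.618). At 16 weeks it had 1.75, 1.51, 1.60, 2.68 and 5.64 CPM in KO-16, against 2.53, 2.17, 4.60, 1.16 and 1.61 CPM in WT-16. The group ranges overlapped almost entirely, and 1 library stood high in each. The log2 fold change was -0.09 (SE 0.44, 95% interval -1.03 to 0.85, edgeR adjusted p = 0.917), which leaves room for a change of about 1 log2 unit either way. The library highest in Ccn3, replicate 5 of KO-16, was next to lowest of the KO-16 libraries in the other 4 genes.

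**Figure D3:**
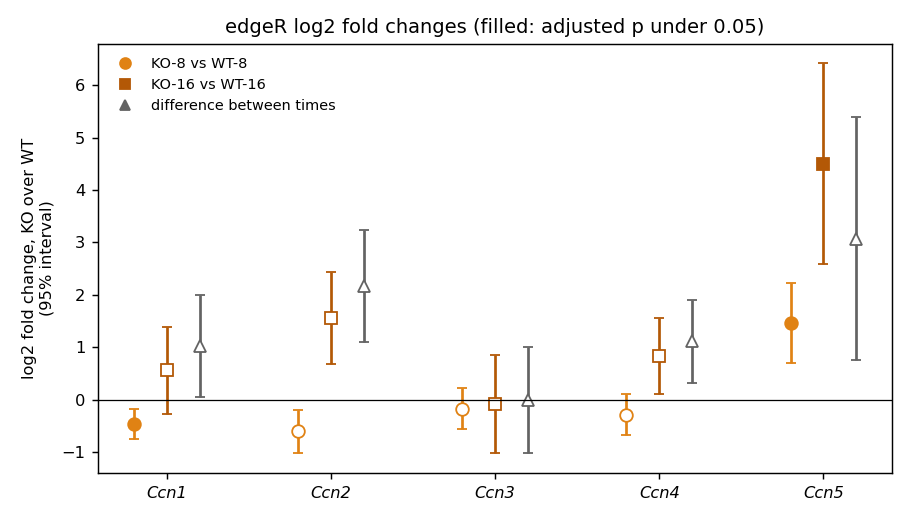
Log2 fold changes of the 5 CCN genes, knockout over wild type, at 8 weeks (circles), at 16 weeks (squares) and the difference between them (triangles), with 95% intervals from edgeR; filled symbols have an adjusted p under 0.05. Filled symbols are Ccn1 (-0.46) and Ccn5 (1.46) at 8 weeks and Ccn5 (4.50) at 16 weeks.

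Ordered by group mean, Ccn1, Ccn2, Ccn3 and Ccn4 shared 1 sequence, KO-16 first, then WT-16, WT-8 and KO-8. Neighbours in it mostly did not separate: WT-16 and WT-8 differed by less than 1 SD of WT-16 in each of the 4. Ccn5 had its own order, KO-16 at 11.8 CPM, KO-8 at 2.17, WT-8 at 0.790 and WT-16 at 0.550 CPM, so that both knockout means stood above both wild-type means. Single libraries overlapped: replicate 4 of KO-8 had 0.970 CPM, below replicate 3 of WT-8 (1.09 CPM) and replicate 1 of WT-16 (1.01 CPM). These orders set the 2 times side by side, and time cannot be told apart from file date.

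Levels were compared between genes per kilobase of exonic length. Ccn2 averaged 74.2 ± 44.2 CPM per kilobase in KO-16 and 25.2 ± 10.3 in WT-16, and 15.6 ± 3.79 in KO-8 and 24.1 ± 6.48 in WT-8 (SD; n = 5, 5, 4 and 5). Ccn1 came next, at 28.4 ± 16.3 CPM per kilobase in KO-16 and 19.2 ± 8.20 in WT-16, and 10.1 ± 1.50 in KO-8 and 14.1 ± 2.81 in WT-8. The other 3 genes were far lower, and Ccn4 had the lowest level per kilobase in all groups but WT-16, where Ccn5 (0.286) and Ccn4 (0.294) were alike. The summed CCN level was 110 ± 62.7 CPM per kilobase in KO-16 and 45.8 ± 17.8 in WT-16, and 27.7 ± 4.42 in KO-8 and 39.5 ± 7.39 in WT-8.

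The makeup of that sum also differed, as a description made after the values were seen. Ccn5 made up 1.87% to 10.3% of the summed CCN level in KO-16, against 0% to 1.61% in WT-16, and 1.80% to 6.68% in KO-8, against 0.692% to 1.50% in WT-8. On this measure knockout and wild type did not overlap at either time, though narrowly (1.87% against 1.61% at 16 weeks and 1.80% against 1.50% at 8 weeks). The 1.61%, in replicate 1 of WT-16, rests on 4 Ccn5 counts, so counting error alone could close the 16-week gap. At 8 weeks the level of Ccn5 itself did overlap, and the sum it was divided by was lower in KO-8 (27.7 CPM per kilobase, against 39.5 in WT-8). The ratio of Ccn2 to Ccn1 per kilobase was 3.06, 2.52, 1.95, 3.77 and 2.04 in KO-16, against 0.914, 1.27, 1.10, 1.90 and 1.57 in WT-16. Here too the 16-week groups did not overlap, though narrowly (1.95 against 1.90). Replicate 1 of KO-16, which was within or below the wild-type range for both genes singly, had the next to highest ratio. How often shares or ratios of other genes part the groups was not counted. At 8 weeks the ratio was 0.997 to 2.10 in KO-8, against 1.15 to 2.47 in WT-8, with the ranges overlapping.

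Across the 19 libraries, which differ in depth and fall into 4 groups that the correlation does not part, the 3 other genes most like each member in log2 CPM were found among 11626 candidates. Ccn5 had the closest company: Srpx2 (Pearson r = 0.96, Spearman rho = 0.91), Svep1 (r = 0.95, rho = 0.91) and Lbp (r = 0.94, rho = 0.85), and r stayed at 0.91, 0.90 and 0.91 without replicates 2 and 3 of KO-16, the libraries farthest from the median. Svep1 averaged 135 CPM in KO-16 and 14.2 in WT-16, and 40.6 in KO-8 and 18.3 in WT-8, the same order of groups as Ccn5. Ccn1 was nearest to Plk2 (r = 0.89, rho = 0.82), Ptprc and Pi4k2b. For Ccn2 the nearest were Cltb (r = 0.88, rho = 0.65), Actn1 and Zwint, and for Ccn4 they were Chsy1 (r = 0.88, rho = 0.76), Gas7 and Tanc2. Ccn3 had no close match: Slc22a15 (r = 0.73, rho = 0.48), Unc13b and Zeb2os came first, and r fell to 0.32, 0.38 and 0.29 without replicate 5 of KO-16 and replicate 3 of WT-16.

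**Figure D4:**
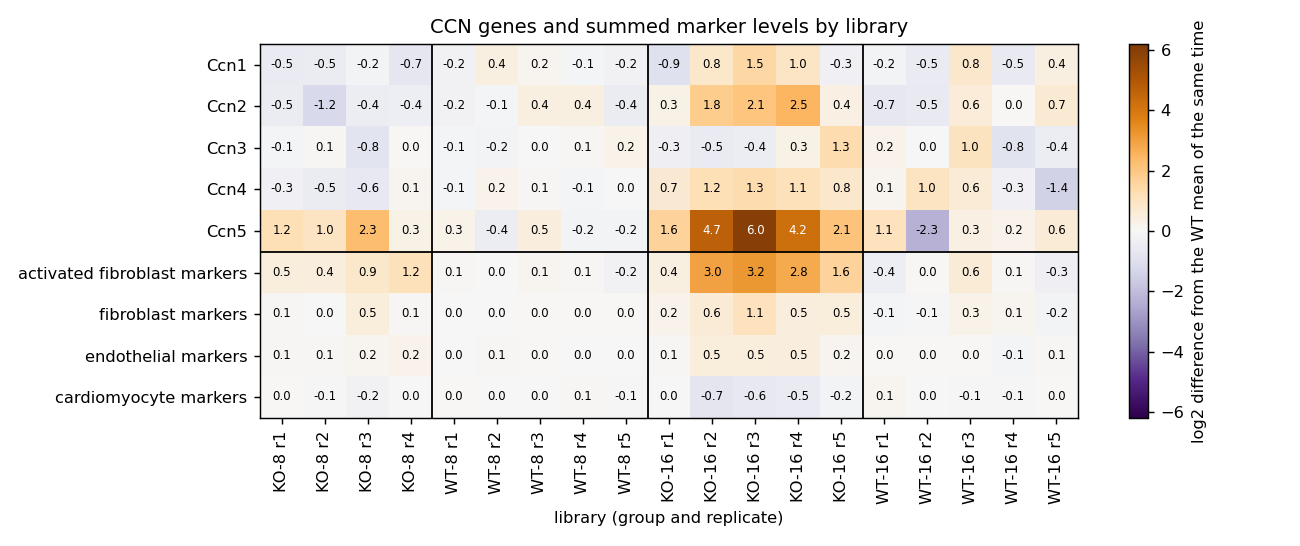
Log2 CPM of each CCN gene in each library (prior count of 2), as the difference from the wild-type mean of the same time, above the same for the summed CPM of 4 marker lists; vertical lines part the groups. Replicates 2, 3 and 4 of KO-16 are high in Ccn1, Ccn2 and Ccn5 and in activated fibroblast markers, while replicate 1 is at -0.89, 0.33 and 1.61 in these 3 genes and at 0.39 in those markers.

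Markers of activated fibroblasts, the cells that lay down scar matrix, were higher in knockout at both times, as Ccn5 was, while Ccn2 had a negative fold change at 8 weeks. Of 11 such markers 10 were tested, and 7 were called higher and 0 lower at each time. Of all genes tested, 8.21% were called at 8 weeks (4.3% higher) and 2.83% at 16 weeks (1.88% higher). The markers had a median log2 fold change of 0.86 at 8 weeks and 2.90 at 16 weeks, beside 0.002 and 0.009 over all genes tested. Their summed level was 226 to 368 CPM in KO-8, against 141 to 182 CPM in WT-8, and it was 196, 1181, 1392, 1013 and 460 CPM in replicates 1 to 5 of KO-16, against 117 to 225 CPM in WT-16. The 3 highest of these KO-16 libraries were also the 3 highest of all 10 libraries of that time in Ccn1, Ccn2, Ccn4 and Ccn5. At 8 weeks the order differed: replicate 4 of KO-8 had the highest marker sum, 368 CPM, and the lowest Ccn5 of its group, 0.970 CPM. Single genes weigh heavily in these sums. Acta2, 1 of these markers, averaged 91.1 CPM in KO-8 and 61.8 CPM in WT-8, with 195 CPM in its highest library of all. None of these markers was at 0 in all libraries, and their part in the CCN differences was not tested. The 16-week count of activated fibroblast markers was 2 without replicate 1 or 2 of WT-16, 3 without replicate 4 or 5 of WT-16 or replicate 2, 3 or 4 of KO-16, and 6 to 9 without any other single library. It was 3 with the 18S covariate, 2 with limma-voom and 0 without the male-marked libraries, and the median log2 fold change was 2.71, 2.52 and 2.92 in these fits. At 8 weeks the count was 6 or 7 without a single library. General fibroblast markers summed to 942 to 1772 CPM in KO-16, against 723 to 992 CPM in WT-16, and to 1161 to 1691 CPM in KO-8, against 1142 to 1216 CPM in WT-8. The 1691 CPM was in replicate 3 of KO-8, the highest of its group in Ccn5 (4.16 CPM). Of the general fibroblast markers, 5 of 11 were called higher at 8 weeks and 4 of 10 at 16 weeks, and 0 lower. At 16 weeks 0 to 6 were higher without a single library, 0 with the 18S covariate and 2 with limma-voom. Among other cell types, 3 of 10 endothelial markers were called higher at 8 weeks and 1 of 10 at 16 weeks. Smooth muscle and pericyte markers had 4 higher and 1 lower of 10 at 8 weeks and 1 higher of 10 at 16 weeks. No macrophage marker was called at either time (of 10 and 9 tested).

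Cardiomyocyte markers had 1 higher and 2 lower of 10 at 8 weeks and none called of 10 at 16 weeks. Their summed level was lowest in replicates 2, 3 and 4 of KO-16, the libraries highest in Ccn2. The remaining lists hold 7 or 8 markers each, and 8.21% of all genes were called at 8 weeks and 2.83% at 16 weeks. Atrial markers had 1 higher of 6 at 8 weeks and 1 higher of 7 at 16 weeks, mesothelial 1 lower of 7 and none of 5, chondrocyte-like none of 1 at either time, adipocyte 1 higher of 1 and none of 1, Schwann and neuronal 1 lower of 6 and none of 4, and erythroid 2 lower of 7 and none of 5. Atrial markers summed to 655, 998, 1030, 1777 and 775 CPM in replicates 1 to 5 of KO-16, against 387 to 894 CPM in WT-16, with the highest sum in the library highest in Ccn2. Erythroid markers summed to 215, 1153 and 584 CPM in replicates 2, 3 and 4 of KO-16 and to 112 CPM or less in replicates 1 and 5, against 58.1 to 138 CPM in WT-16, and to 259 to 573 CPM in KO-8, against 436 to 966 CPM in WT-8. Replicates 2, 3 and 4 of KO-16, the highest in Ccn2 and Ccn5, were thus also the highest of the 16-week libraries in both sums, and the part of these markers in the CCN differences was not tested. The chondrocyte marker Matn3 had no count in any library.

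Other matricellular genes, secreted matrix proteins that signal rather than bear load, gave calls in 1 direction only. At 8 weeks 8 of the 19 tested were higher in knockout and 0 lower (median log2 fold change 0.33), and at 16 weeks 9 of 19 were higher and 0 lower (median 1.16), beside 8.21% and 2.83% of all genes. Cilp, a cartilage intermediate layer protein known from injured heart, rose 40.4-fold at 16 weeks, to 135 ± 117 CPM in KO-16 against 3.08 ± 1.33 CPM in WT-16 (edgeR adjusted p = 0.00823), and 4.84-fold at 8 weeks (adjusted p = 0.00238). Thbs4, a thrombospondin, rose 43.6-fold at 16 weeks (adjusted p = 0.0188) and 1.83-fold at 8 weeks (adjusted p = 0.0189). Its 16-week levels were 2.17 to 176 CPM in KO-16 (63.1 ± 68.7 CPM, SD), against 1.01 to 2.07 CPM in WT-16. The knockout libraries thus varied widely, and the lowest was near the wild-type range. The lowest wild-type value, 1.01 CPM, rests on 4 counts in replicate 1 of WT-16. Thbs4 passed the filter on low counts through its knockout libraries, so the size of its 16-week fold rests on low wild-type counts. Postn, periostin, rose 7.13-fold (adjusted p = 0.0114) and Fstl1, a follistatin-like glycoprotein, 3.26-fold (adjusted p = 0.0178) at 16 weeks. Cilp, Postn and Comp also stand among the activated fibroblast markers. Without a single library the 16-week count ran from 1 to 12: it was 1 without replicate 1 or 2 of WT-16, 2 without replicate 4 or 5, 5 without replicate 3, 4 without replicate 2 or 3 of KO-16, 3 without replicate 4, 10 without replicate 5 and 12 without replicate 1. It was 2 with the 18S covariate and 3 with limma-voom, with a median log2 fold change of 1.03 and 1.04. In the fit to all 19 libraries, where 0.2% of genes were called at 8 weeks, the 8-week count was 0 for these genes and for every other list but the chondrocyte-like markers (1 higher).

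Receptors known to bind CCN proteins, mostly integrins and LRP proteins, were called about as rarely as all genes. The heparan sulphate proteoglycan Sdc4 alone passed at 8 weeks, lower in knockout (1 of 19, or 5.26%, where 8.21% of all genes were called; log2 fold change -0.41, edgeR adjusted p = 0.0450), and 0 of 17 passed at 16 weeks, where 2.83% of all genes did. The 3 nearest at 16 weeks just missed: Itgb5, an integrin beta subunit, had 58.0 ± 26.6 CPM in KO-16 and 28.4 ± 2.90 CPM in WT-16 (adjusted p = 0.0516). Itgb3 had 5.10 ± 1.04 CPM in KO-16 and 2.35 ± 0.820 CPM in WT-16 (adjusted p = 0.0529), and Lrp1, an endocytic receptor, had 223 ± 118 CPM in KO-16 and 106 ± 11.7 CPM in WT-16 (adjusted p = 0.0564).

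Targets of YAP and TEAD other than the CCN genes did not move together. At 8 weeks 2 of 18 were higher (Ankrd1 and Ccdc80) and 3 lower (Igfbp3, Nuak2 and Amotl2), with a median log2 fold change of -0.03, and at 16 weeks 2 of 18 were higher (Ankrd1 and Ccdc80) and 0 lower, with a median of 0.11. Over all genes tested 4.3% were higher and 3.91% lower at 8 weeks, and 1.88% higher and 0.945% lower at 16 weeks. Ankrd1, a cardiac ankyrin repeat protein induced by stretch, rose 2.12-fold at 8 weeks (adjusted p = 0.00545) and 6.0-fold at 16 weeks (adjusted p = 0.00823). Its direction at 8 weeks was opposite to that of Ccn1 and of the fitted Ccn2. Of the Hippo components themselves, 2 of 19 were higher at both times, Amot (2.36-fold at 16 weeks, adjusted p = 0.0317) and the TEAD cofactor Vgll3 (2.81-fold, adjusted p = 0.0462), and Map4k4 was lower at 8 weeks.

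TGF-beta pathway genes gave 3 higher of 20 at 8 weeks (Ltbp2 and Pmepa1 among them) and 2 higher of 20 at 16 weeks (Ltbp2 and Tgfb3), with 0 lower. The share of all genes called higher was 4.3% at 8 weeks and 1.88% at 16 weeks. Tgfb3, a TGF-beta ligand, rose 2.35-fold at 16 weeks (adjusted p = 0.0262). Ltbp2, which is related to the latent TGF-beta binding proteins and also stands among the activated fibroblast markers, had 0.981 to 82.0 CPM in KO-16, against 0 to 1.52 CPM in WT-16 (adjusted p = 0.0262). The groups overlapped, and 3 counts amount to 0.138 to 0.758 CPM in the WT-16 libraries, so no fold is given and Ltbp2 passed the filter on low counts through its knockout libraries. Pmepa1, a feedback inhibitor and direct target of the pathway, had 12.3 to 49.0 CPM in KO-16 (mean 24.7 CPM), against 7.49 to 13.2 CPM in WT-16 (mean 10.7 CPM, log2 fold change 1.21, SE 0.34, adjusted p = 0.0643).

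Immediate early and serum response genes, the class Ccn1 belongs to, were lower at 8 weeks. Of 20 tested, 9 were called lower and 0 higher in KO-8 (45.0%, median log2 fold change -0.47), where 3.91% of all genes were lower. The count was 7 to 12 without a single library. Zfp36, which destabilises mRNA, fell to 10.8 ± 3.43 CPM in KO-8, against 19.3 ± 2.37 CPM in WT-8 (adjusted p = 0.00663), and the transcription factors Klf4 (log2 fold change -0.51, adjusted p = 0.00177) and Klf6 (-0.42, adjusted p = 0.0113) fell too. Atf3 (-1.99, adjusted p = 0.00160) and Fos (-1.32, adjusted p = 0.0209), named after their values were seen, were lower as well. At 16 weeks none of 19 was called, with a median of -0.17. Srf, serum response factor itself, had a log2 fold change of 0.10 at 8 weeks (adjusted p = 0.576) and 0.29 at 16 weeks (adjusted p = 0.129).

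Wnt pathway genes gave 4 higher of 15 at 8 weeks (Frzb, Ccnd1, Fzd1 and Dkk3), where 4.3% of all genes were higher. At 16 weeks, where 1.88% of all genes were higher, 2 of 12 Wnt pathway genes were higher, and 0 were lower at either time. Both called at 16 weeks were secreted Wnt antagonists, Frzb (4.53-fold, adjusted p = 0.0232) and Sfrp2 (adjusted p = 0.0497). Sfrp2 had 1.96 to 52.1 CPM in KO-16, against 0.542 to 2.83 CPM in WT-16, with the groups overlapping. Genes of insulin-like growth factors and their binding proteins gave the same 3 higher of 10 at both times, Igfbp7, Igf1 and Igfbp4. Igfbp7, a matrix-bound relative, rose 1.64-fold at 8 weeks (adjusted p = 0.000138) and 3.26-fold at 16 weeks (adjusted p = 0.0211), and Igf1 rose 1.50-fold (adjusted p = 0.00940) and 3.09-fold (adjusted p = 0.0228). Of angiotensin and endothelin genes 1 was higher at both times, of 8 and of 7 tested: Ace, the angiotensin converting enzyme, rose 1.51-fold at 8 weeks (adjusted p = 0.00224) and 2.78-fold at 16 weeks (adjusted p = 0.0408). Without a single 16-week library the number called higher at 16 weeks ran from 0 to 6 for receptors, 1 to 6 for YAP and TEAD targets, 0 to 4 for Hippo components, 0 to 7 for TGF-beta genes, 0 to 7 for Wnt genes, 0 to 3 for insulin-like growth factor genes and 0 to 2 for angiotensin and endothelin genes. With the 18S covariate that number was 1 for YAP and TEAD targets and 0 for each of the others. With limma-voom it was 1 for YAP and TEAD targets, 1 for TGF-beta genes, 2 for insulin-like growth factor genes and 0 for the rest.

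**Figure D5:**
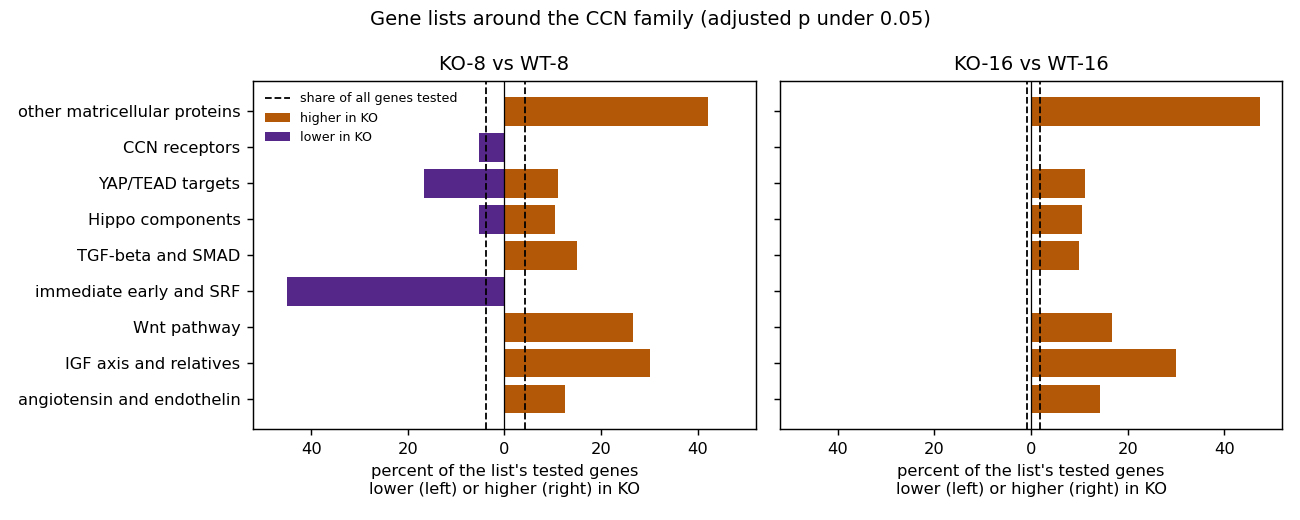
Share of the tested genes of each list called higher (right) or lower (left) in knockout at 8 weeks (left panel) and 16 weeks (right panel), with dashed lines at the share over all genes tested (4.3% and 3.91% at 8 weeks, 1.88% and 0.945% at 16 weeks). Other matricellular genes reach 42.1% and 47.4% higher, and immediate early genes 45.0% lower at 8 weeks.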

How the data were processed

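Ventricular RNA was depleted of ribosomal RNA and sequenced as stranded paired-end libraries, per the labels' protocols. The deposited values are raw read-pair counts per gene made by the authors with featureCounts 1.6.3 (paired, reverse-stranded, largest overlap) on the Ensembl 96 annotation of GRCm38, per the file headers. The submitters' processing notes list STAR, RSEM, SAMtools, FastQC and cutadapt 1.16 as tools, with no role given. The 2 files of each 16-week sample were summed. In the later one 10.0% to 16.1% of detected genes had fewer counts than in the earlier one, so it does not hold the earlier counts.

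In R 4.3.3, edgeR 4.0.16 (TMM factors of 0.455 to 1.48 over all libraries, filterByExpr, quasi-likelihood test, Benjamini-Hochberg adjustment) compared KO-8 with WT-8 and KO-16 with WT-16, each within its own libraries, because an earlier analysis of these data had recorded many false calls in simulated 16-week data when all libraries shared one dispersion estimate. The difference between times was fitted to all 19 libraries. Intervals are 95%. CPM divides counts by library total times TMM factor, and CPM per kilobase divides that by the exonic length in the files. The steps were tested on simulated data. Alternatives were DESeq2 1.42.0, limma-voom 3.58.1 with and without a variance per group, other scalings and filters, each library left out, rRNA or mitochondrial genes left out, all 19 libraries in 1 fit, each 16-week file alone, the 18S share as a covariate, and libraries marked male left out. Depth limits the precision of Ccn3, Ccn4 and Ccn5, whose counts fell as low as 7, 2 and 0 in a library. Promoters are those of RefSeq on GRCm38.p6.

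The members and the gene lists were chosen with earlier results of these data known. Named genes were the 5 members, Ccn6, Mpc1, up to 4 genes of each list with the smallest unadjusted p at 16 weeks, and, for each member, the 3 genes with the largest Pearson r of log2 CPM over the 19 libraries among named genes of mean 1 CPM or more. Genes called in a list of pathway genes are named beside its count where few, except 1 that is not reported here.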

Additional observations from a re-analysis of the deposited data

Results flagged for a closer look

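In 2 of 20 sets of values (5 genes in 4 groups) 1 library stood apart from the others of its group by more than Dixon's 95% criterion, which chance would pass in about 1 of 20. Ccn2 was 28.6 CPM in replicate 2 of KO-8, where the nearest library of that group had 48.9 CPM. Ccn3 was 5.64 CPM in replicate 5 of KO-16, where the nearest had 2.68 CPM. The effect on Ccn2 differed between times in direction: every KO-8 library lay below the WT-8 mean and every KO-16 library above the WT-16 mean, with a difference of log2 fold changes of 2.17. That difference had an unadjusted p of 0.00036 and an adjusted p of 0.235 in edgeR, so it did not pass over all genes, and time and file date cannot be told apart.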

How the results depend on the processing

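No paired analysis was possible because replicate numbers were given in accession order and do not pair samples. At 16 weeks Ccn2 passed the threshold with no filter (1.58), DESeq2 (1.56) and voom with a variance per group (1.40). It also passed with all 19 libraries (1.55) and the earlier file alone (1.56), and ran from 1.25 to 1.76 without single libraries. The exact permutation test, which was not adjusted over genes, gave p = 0.0476 (1.41 in mean log2 CPM). Ccn3 changed sign with DESeq2 (0.0095) and the permutation test (0.084), and ran from -0.51 to 0.42 without single libraries. Ccn4 passed with all 19 libraries (0.81), and its permutation test gave an unadjusted p of 0.0317 (1.03). Ccn5 lost its call with limma-voom (4.05, adjusted p = 0.102), the 18S covariate (4.17) and without male-marked libraries (4.63), ran from 3.66 to 4.79 without single libraries, and could not be tested in either 16-week file alone, since the filter removed it; Ccn3 and Ccn4 were removed in the earlier one. Of 21 tested alternatives 10 called Ccn5 (adjusted p from 0.000124 to 0.149). Genes called at 16 weeks numbered 1034 with no filter, 1166 with DESeq2, 922 with voom with a variance per group, 3180 with all 19 libraries, 28 with the 18S covariate and 10 without male-marked libraries, and 29 to 1854 without single libraries. With limma-voom 106 were higher and 226 lower, where edgeR gave 237 and 119.

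At 8 weeks Ccn1 lost its call with limma-voom (-0.45), voom with a variance per group (-0.45) and all 19 libraries (-0.48), and ran from -0.57 to -0.35 without single libraries. Ccn2 passed with no filter (-0.61), ran from -0.71 to -0.44, and had an unadjusted permutation p of 0.0397 (-0.62). Ccn5 lost its call with all 19 libraries (1.45), and ran from 0.93 to 1.72. Genes called numbered 31 with all 19 libraries. For the difference between times, Ccn2 passed with no filter (2.20) and ran from 1.87 to 2.37, Ccn3 changed sign with no filter (0.0072) and DESeq2 (0.12) and ran from -0.41 to 0.55, and Ccn5 ran from 2.25 to 3.59. Genes called there numbered 43 with no filter, 30 with DESeq2 and 0 to 613 without single libraries. The cause of these changes was not tested. The median of all genes moved by over 0.1 in no scaling; with no filter, it was 0.10 for the difference between times.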
